A study of Mus musculus with 10 samples.

Results

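Matrix metalloproteinases and their tissue inhibitors were followed in whole melanoma tumors 4 days after subcutaneous implantation, as 10 genes: Mmp2, Mmp3, Mmp10, Mmp11, Mmp12, Mmp13, Mmp14, Mmp19, Timp1 and Timp3. The genes were chosen by symbol, all 10 were matched to a gene of the count table, and all 10 were among the 14550 genes tested of 45706 listed. The tumors grew from cells of a Braf V600E-driven mouse melanoma line in C57BL/6 hosts 8 weeks old. COX-competent cells (Ptgs+/+, n = 4) and cells made deficient in Ptgs1 and Ptgs2, the genes of COX-1 and COX-2 (Ptgs-/-, n = 3), were implanted in untreated hosts. A further group of Ptgs-/- tumors (n = 3) came from hosts given anti-NK1.1 (PK136, 200 µg) together with anti-asialo GM1 (30 µg) at day 0 and again at day 2, and is called Ptgs-/- NK-depleted here. All 3 groups thus share the Braf-mutant background and differ in the COX genotype of the cancer cells and in the antibodies given to the host. Each library is 1 whole tumor with all its host cells, and nothing in the labels says whether tumors shared a litter or a day.

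Matrix metalloproteinases are zinc-dependent endopeptidases, mostly secreted as inactive proenzymes, that cut collagens, proteoglycans, elastin and many cytokines and growth factors. They are grouped by their substrates into collagenases, gelatinases, stromelysins, an elastase and membrane-bound forms. The tissue inhibitors (TIMPs) block the active site, and in tumors both are made by fibroblasts, myeloid cells, endothelium and cancer cells alike. Prostaglandin E2, the product of the COX pathway in these cells, is known to modulate several of these genes.

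RNA was sequenced from 3′ ends (QuantSeq), so that 1 transcript gives about 1 tag whatever its length, and levels are given as CPM, counts scaled to the same total in each library. The 10 libraries held 8150556 to 12839174 counts, for which 3 counts correspond to 0.234 to 0.368 CPM, a floor that covers counting error only. Ptgs1 and Ptgs2 fell in Ptgs-/- tumors by 0.76 and 2.62 on the log2 scale, and Ncr1, the NK cell receptor NKp46, had 0 counts in each of the 3 NK-depleted libraries. Markers of the labelled melanocytic tissue were uneven, and 3 of 10 passed the filter on low counts. These were Mitf (166 to 339 counts a library), Erbb3 (36 to 143) and Sox10 (2 to 63). Among the rest, Slc45a2 was at 0 in all 10 libraries and Tyrp1 was at 0 in 9. Other cells moved with the groups. Summed skeletal muscle markers were at 22.9 to 181 CPM in Ptgs+/+ and 121 to 408 CPM in Ptgs-/- tumors, and at 2533 to 5986 CPM in NK-depleted ones, and their part in the results was not tested. Titles carry an experiment code, and Ptgs+/+ replicate 4 and Ptgs-/- replicate 3 have a different one (EB042) from the other 8 libraries (EB046). With 1 library in each of those groups and no NK-depleted one, the EB042 code gives no value of its own. Values from EB046 alone are given beside each called gene of the family.

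The first comparison asked what COX deficiency of the cancer cells changed in tumors of hosts with NK cells. Of the 10 genes, Timp3 and Mmp12 rose and Timp1 and Mmp14 fell in Ptgs-/- against Ptgs+/+ tumors (FDR at or under 0.05 in the quasi-likelihood test of edgeR, adjusted over all 14550 genes by Benjamini-Hochberg). This is 4 of 10, where 23.1% of all genes tested were called, with 2 higher beside a background of 12.1% and 2 lower beside 11%. None of the 10 passed the added threshold of an absolute log2 fold change of 1.5, which 4.15% of all genes passed. The median log2 fold change of the 10 genes was −0.20, and that of all genes tested was −0.01. In 3 of 10 the libraries of both groups did not overlap, against 30.6% of all genes. The p-values set each difference against the spread between tumors, estimated over all 10 libraries, the NK-depleted ones included. In bulk tumors, fewer cells of a type and less RNA per cell cannot be told apart.

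**Figure D1:**
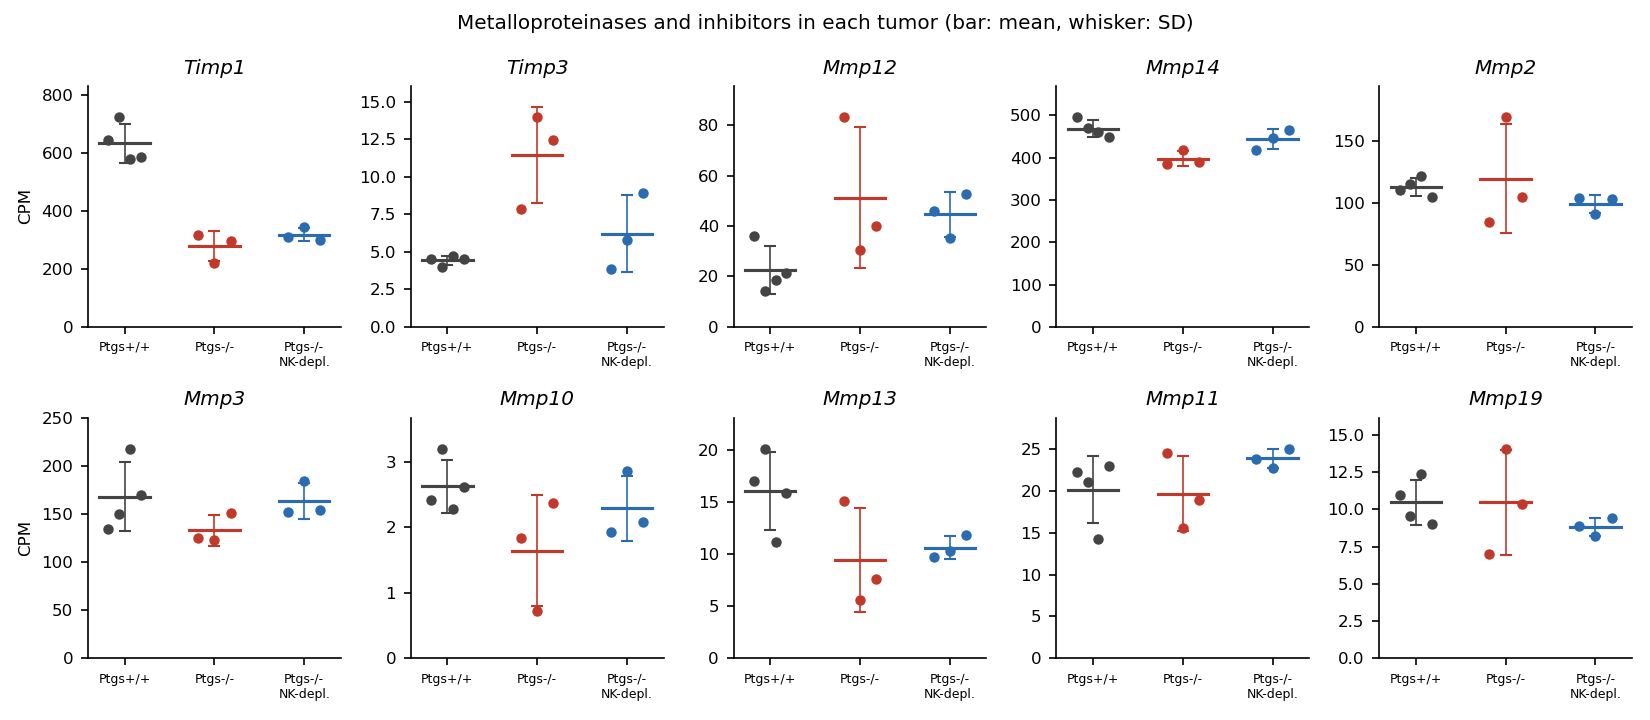
Level of each of the 10 genes in each tumor, in CPM (y axes from 0), for Ptgs+/+ (grey, n = 4), Ptgs-/- (red, n = 3) and Ptgs-/- NK-depleted tumors (blue, n = 3); the horizontal bar is the mean and the whisker the SD. Timp1 lies between 579 and 724 CPM in Ptgs+/+ tumors and between 220.3 and 345 in the other 6, and Timp3 is above every Ptgs+/+ tumor in each Ptgs-/- tumor.

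Timp1 encodes a secreted inhibitor of most metalloproteinases and binds the MMP-9 proenzyme. The gene (ENSMUSG00000001131) lies on chromosome X of GRCm38 from 20870166 to 20874735, within the span of Syn1, which is read from the opposite strand. It stood at 645, 724, 579 and 587 CPM in Ptgs+/+ tumors and at 318, 220.3 and 297 CPM in Ptgs-/- tumors. Every Ptgs-/- tumor was below every Ptgs+/+ tumor. The level was 634 ± 66.8 CPM (SD, n = 4) against 279 ± 51.5 (SD, n = 3), a 2.37-fold fall with a log2 fold change of −1.25 (SE 0.14, 95% interval −1.56 to −0.94, adjusted p = 0.000218, edgeR). The call held without each of the 10 libraries in turn (log2 fold change −1.36 to −1.09) and within EB046 alone (−1.30, adjusted p = 0.00335, edgeR). Syn1, whose reads could be mixed with those of Timp1 if strand was not used in counting, had 15 to 33 counts a library, while Timp1 had 2129 or more.

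Timp3, an inhibitor that stays bound to the extracellular matrix and also blocks ADAM17 and several ADAMTS proteases, went the other way. The gene (ENSMUSG00000020044, chromosome 10 from 86300372 to 86349506, opposite in strand to Syn3) had 4.52, 4.02, 4.74 and 4.50 CPM in Ptgs+/+ tumors. It had 7.85, 14.0 and 12.5 CPM in Ptgs-/- tumors, each above every Ptgs+/+ tumor. The Ptgs+/+ tumors were close together (4.44 ± 0.303 CPM, SD, n = 4) and the Ptgs-/- tumors spread out (11.4 ± 3.19, SD, n = 3). The rise was 2.47-fold (log2 fold change 1.30, SE 0.27, 95% interval 0.72 to 1.89, adjusted p = 0.00514, edgeR). The call held without each of the 10 libraries (1.14 to 1.502) and within EB046 alone (1.28, adjusted p = 0.0392, edgeR). Syn3 had 0 to 5 counts a library.

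Mmp12 encodes macrophage metalloelastase, which macrophages secrete and which cuts elastin. The gene (ENSMUSG00000049723, chromosome 9 from 7344381 to 7369499) had 36.1, 14.3, 18.5 and 21.2 CPM in Ptgs+/+ tumors and 83.1, 30.4 and 40.03 CPM in Ptgs-/- tumors. The groups overlapped, since Ptgs+/+ replicate 1 lay above Ptgs-/- replicate 2, and Ptgs-/- replicate 1 stood apart from the rest of its group. The log2 fold change was 1.12 (SE 0.35, 95% interval 0.35 to 1.88, adjusted p = 0.0396, edgeR), a 2.17-fold rise. The call rests on few libraries. It was lost without Ptgs-/- replicate 1 (log2 fold change 0.57, adjusted p = 0.203, edgeR), without Ptgs+/+ replicate 2, 3 or 4 (0.96 to 1.08, adjusted p = 0.0705 to 0.102, edgeR), without NK-depleted replicate 1 or 2, with only those groups fitted (1.14, adjusted p = 0.0741, edgeR) and within EB046 alone (1.27, adjusted p = 0.0809, edgeR). Summed levels of 12 macrophage markers were 2027 to 2428 CPM in Ptgs+/+ tumors and 3158 to 5049.9 CPM in Ptgs-/- tumors, with 9 of 12 markers called higher (12.1% of all genes) and none at 0 in any group. Ptgs-/- replicate 1, highest for Mmp12, had the lowest macrophage sum of its group. The part of macrophage number in the Mmp12 difference was not tested.

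Mmp14 encodes the membrane-bound MT1-MMP, which cuts collagen at the cell surface and activates the MMP-2 proenzyme. It was the most abundant metalloproteinase in all 10 tumors. The gene (ENSMUSG00000000957, chromosome 14 from 54431612 to 54445364) had 495, 469.6, 461 and 448 CPM in Ptgs+/+ tumors and 384, 418 and 389.8 CPM in Ptgs-/- tumors, with no overlap. The fall was small, with a log2 fold change of −0.30 (SE 0.09, 95% interval −0.48 to −0.11, adjusted p = 0.0282, edgeR). It was not past the threshold without Ptgs-/- replicate 3 (−0.24, adjusted p = 0.139, edgeR), without Ptgs+/+ replicate 1 or 2, Ptgs-/- replicate 1 or NK-depleted replicate 3 (adjusted p = 0.0516 to 0.0857, edgeR), or within EB046 alone (−0.27, adjusted p = 0.119, edgeR). It was also not past the threshold with library size in place of TMM factors (−0.24, adjusted p = 0.0555, edgeR), with no filter beyond 1 count in any library (−0.28, adjusted p = 0.127, edgeR), with only those groups fitted (−0.28, adjusted p = 0.0639, edgeR) and with the replicate block (−0.29, adjusted p = 0.0508, edgeR).

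Summed levels of 10 endothelial markers moved in the same direction as Timp1 and Mmp14, at 496 to 575 CPM in Ptgs+/+ and 183 to 436 CPM in Ptgs-/- tumors, with no overlap. Of the 10, 4 were called lower in Ptgs-/- against Ptgs+/+ tumors (11% of all genes) and none was at 0 in all libraries of a group. In NK-depleted tumors the sum was 316 to 473 CPM and, against Ptgs+/+ tumors, edgeR called none of the 10, with 4 lower at an unadjusted p under 0.05, while DESeq2 and the likelihood ratio test each called 2 (Tie1 and Esam). Within its group, Ptgs-/- replicate 1 had the lowest sum, the highest Timp1 and the lowest Mmp14. NK-depleted replicate 3 had the highest sum, the lowest Timp1 and the highest Mmp14. Ptgs+/+ replicate 1 had the lowest sum and the highest Mmp14, but the highest Timp1 was in Ptgs+/+ replicate 2. The highest sum among Ptgs-/- tumors was in replicate 3, but the lowest Timp1 and the highest Mmp14 were in replicate 2. Summed levels of 12 neutrophil markers did not overlap either, at 322 to 391 CPM in Ptgs+/+ and 95.8 to 138 CPM in Ptgs-/- tumors. The part of endothelial cells or neutrophils in the Timp1 and Mmp14 differences was not tested.

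**Figure D2:**
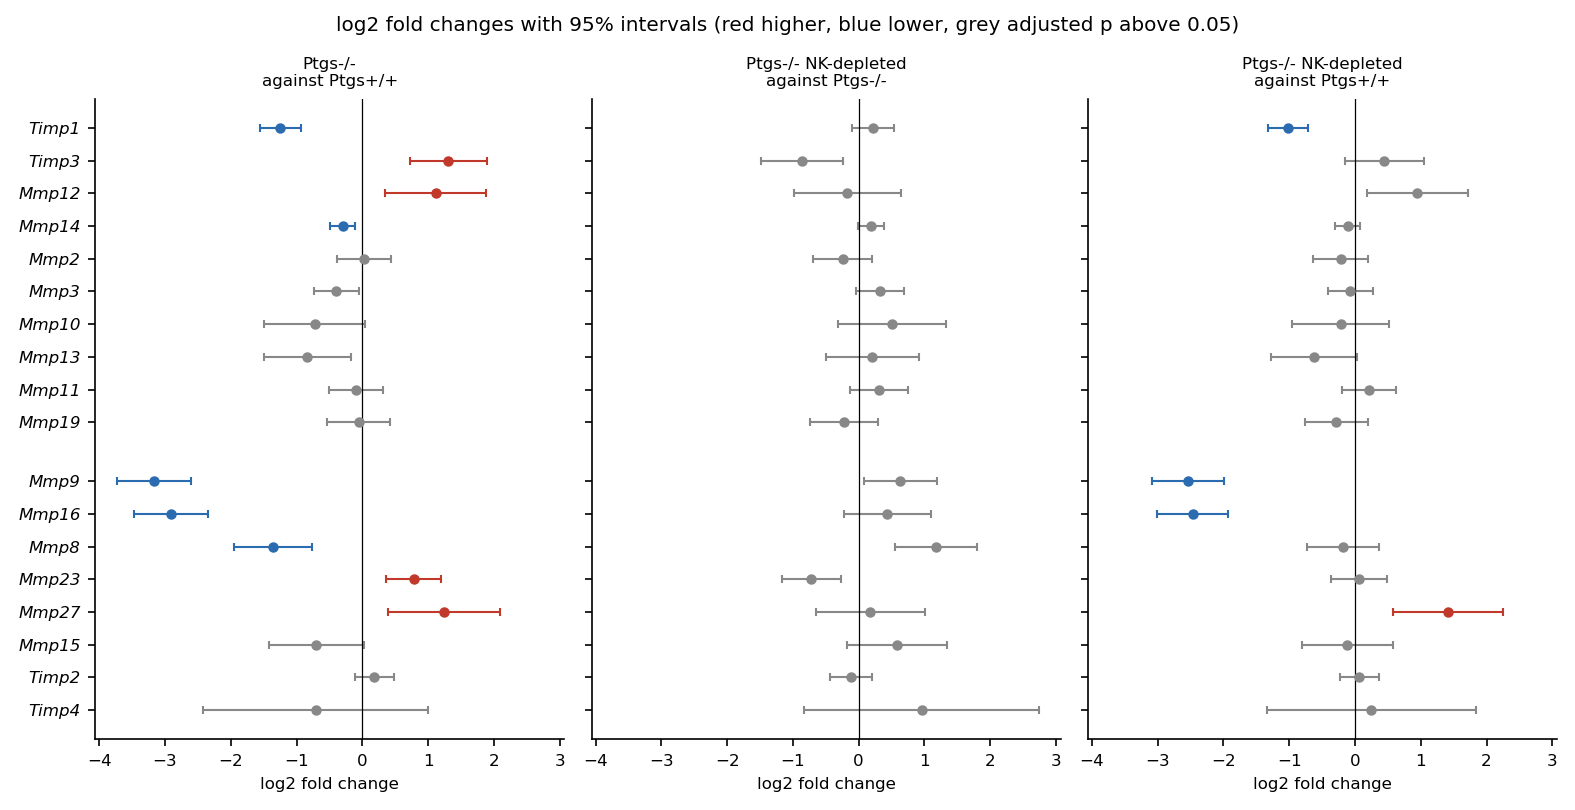
log2 fold change (x axes, on 1 scale) of the 10 genes and, under a gap, of the 8 other tested family genes in the 3 comparisons; points are edgeR estimates and bars 95% intervals, red for higher and blue for lower at an adjusted p of 0.05 and grey otherwise. Timp1 is blue in both comparisons with Ptgs+/+ tumors, and no gene is coloured in NK-depleted against Ptgs-/- tumors.

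Mmp2, the gelatinase that Mmp14 activates, and Mmp19, a secreted enzyme that cuts basement membrane proteins, did not pass the test. Mmp2 (ENSMUSG00000031740, chromosome 8 from 92827291 to 92853420) had 110.3, 115, 122 and 105 CPM in Ptgs+/+ tumors and 85.1, 169 and 105 CPM in Ptgs-/- tumors. Its log2 fold change was 0.03 with a 95% interval from −0.39 to 0.44 (adjusted p = 0.941, edgeR). Without Ptgs-/- replicate 2 it was −0.30. Mmp19 (ENSMUSG00000025355, chromosome 10 from 128790910 to 128800824) had 10.98, 9.59, 12.4 and 9.00 CPM and then 6.99, 14.1 and 10.4 CPM, with a log2 fold change of −0.06 (95% interval −0.53 to 0.42, adjusted p = 0.881, edgeR). Ptgs-/- replicate 2 was the highest of the 10 libraries for both genes and Ptgs-/- replicate 1 the lowest. Ptgs-/- replicate 2 also had the highest sum of 12 fibroblast markers (3696 CPM, against 1353 to 1888 in Ptgs+/+ tumors and 2129 in Ptgs-/- replicate 1) and the highest Timp3. Of the 12 fibroblast markers, 6 were called higher in Ptgs-/- against Ptgs+/+ tumors (12.1% of all genes) and none was at 0 in any group. The part of fibroblast number in these levels was not tested. Mmp19 overlaps the end of Tmem198b and the antisense gene Gm47093 on the opposite strand, so its counts are uncertain if strand was not used.

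Mmp11, stromelysin-3, a fibroblast enzyme that furin activates inside the cell, gave no detectable difference. The gene (ENSMUSG00000000901, chromosome 10 from 75923222 to 75936496, minus strand) had 22.3, 21.1, 14.2 and 23.0 CPM in Ptgs+/+ tumors and 24.5, 15.6 and 18.9 CPM in Ptgs-/- tumors. Its log2 fold change was −0.10 (95% interval −0.50 to 0.31, adjusted p = 0.753, edgeR), and the groups overlapped over most of their range. It overlaps Chchd10 on the opposite strand.

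The collagenase Mmp13 and the stromelysins Mmp3 and Mmp10, which cut fibrillar collagen and a broad range of matrix proteins and can activate other proenzymes, lie with Mmp12 in a cluster of 10 metalloproteinase genes that covers 427.1 kb of chromosome 9. All 3 had lower mean levels in Ptgs-/- tumors and none passed the test. Mmp13 (ENSMUSG00000050578, chromosome 9 from 7272514 to 7283331) had 17.1, 20.1, 11.1 and 15.9 CPM in Ptgs+/+ tumors and 15.1, 5.59 and 7.66 CPM in Ptgs-/- tumors. The groups overlapped through Ptgs+/+ replicate 3 and Ptgs-/- replicate 1, and the log2 fold change was −0.83 (SE 0.30, 95% interval −1.499 to −0.17, adjusted p = 0.0683, edgeR). Mmp13 passed the threshold with DESeq2 (−0.81, adjusted p = 0.0402), with the likelihood ratio test of edgeR (adjusted p = 0.03997) and without Ptgs-/- replicate 1 (−1.34, adjusted p = 0.00346, edgeR) or Ptgs+/+ replicate 3 (−0.98, adjusted p = 0.0317, edgeR).

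Mmp3 (ENSMUSG00000043613, chromosome 9 from 7445822 to 7455975) had 135, 150.4, 218 and 169 CPM in Ptgs+/+ tumors and 125, 123 and 152 CPM in Ptgs-/- tumors. Its log2 fold change was −0.40 (SE 0.16, 95% interval −0.74 to −0.05, adjusted p = 0.0914, edgeR), with overlap at 1 Ptgs-/- tumor. Mmp10 (ENSMUSG00000047562, chromosome 9 from 7502352 to 7510240) was the least abundant of the 10 genes, at 2.41, 3.20, 2.28 and 2.62 CPM in Ptgs+/+ tumors and 1.84, 0.724 and 2.37 CPM in Ptgs-/- tumors. With 7 to 31 counts a library over all groups, its log2 fold change of −0.72 had a wide interval, from −1.49 to 0.05 (adjusted p = 0.163, edgeR).

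**Figure D3:**
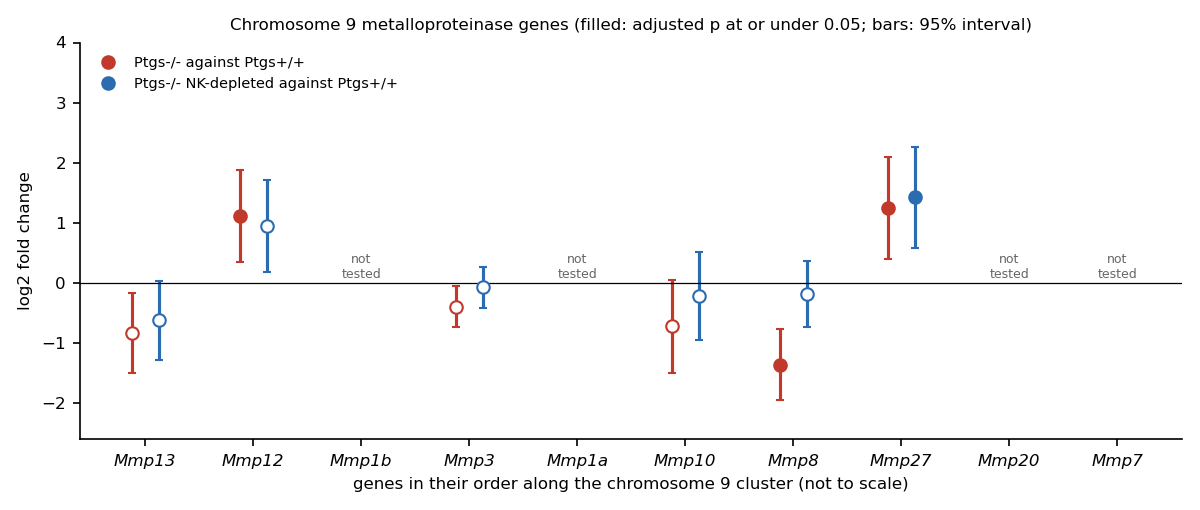
log2 fold change (y axis) with its 95% interval for the 10 metalloproteinase genes in their order along the chromosome 9 cluster, in Ptgs-/- (red) and Ptgs-/- NK-depleted tumors (blue) against Ptgs+/+ tumors; filled points have an adjusted p at or under 0.05. Mmp12 and Mmp27 lie above 0 and Mmp13, Mmp3, Mmp10 and Mmp8 below it in both comparisons, and 4 genes had too few counts to be tested.

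AP-1, a dimer of Fos and Jun family proteins, is a known regulator of collagenase and stromelysin genes through a site close upstream of their start, so these stretches are shown beside those of both inhibitors that changed. RefSeq promoter windows (GRCm38.p6) were held for 8 of the 10 genes, all but Mmp2 and Mmp19. The AP-1 motif TGANTCA, which reads alike on both strands, was searched in the 250 bases before each start and lies in 6.75% of all 32851 such windows. It was found in 4 of the 8 genes, Mmp13, Mmp12, Mmp3 and Mmp10, all in the cluster, and in no window of Mmp11, Mmp14, Timp1 or Timp3. Mmp1a, Mmp1b, Mmp7 and Mmp20 of the same cluster had a match too. The 6.75% is a share of windows, which came from 27025 genes, and not a share of genes. The following lines give 100 bases upstream of the start, 5′ to 3′, in lower case with the AP-1 match in capitals. For Timp3 and the first start of Mmp12 the stretch ends at the GENCODE gene start, 40 and 16 bases before the RefSeq start.
Mmp13, chr9:7272414-7272513, + strand: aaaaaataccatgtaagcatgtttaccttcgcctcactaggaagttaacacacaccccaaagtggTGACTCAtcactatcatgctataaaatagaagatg
Mmp3, chr9:7445722-7445821, + strand: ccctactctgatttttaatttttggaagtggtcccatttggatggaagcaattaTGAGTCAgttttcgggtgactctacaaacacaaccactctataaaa
Mmp10, chr9:7502242-7502341, + strand: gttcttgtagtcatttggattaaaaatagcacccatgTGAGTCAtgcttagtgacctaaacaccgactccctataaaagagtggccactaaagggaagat
Mmp12 second start, chr9:7347274-7347373, + strand: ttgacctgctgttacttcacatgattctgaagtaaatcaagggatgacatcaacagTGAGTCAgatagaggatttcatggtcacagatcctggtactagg
Mmp12 first start, chr9:7344281-7344380, + strand: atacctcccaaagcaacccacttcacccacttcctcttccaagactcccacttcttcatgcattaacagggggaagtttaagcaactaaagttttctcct
Timp1, chrX:20870066-20870165, + strand: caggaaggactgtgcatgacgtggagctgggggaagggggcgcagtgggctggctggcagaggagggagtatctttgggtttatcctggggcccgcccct
Timp3, chr10:86300272-86300371, + strand: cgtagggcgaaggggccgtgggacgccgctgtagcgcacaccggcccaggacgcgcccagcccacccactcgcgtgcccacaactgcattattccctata
The match begins 35 bases before the RefSeq start in Mmp13, 46 in Mmp3 and 63 in Mmp10. In Mmp12 it is found at the second RefSeq start, beginning 44 bases before it, and not at the first, which is the one nearest the gene's annotated 5′ end. Of the 4 genes with a match, Mmp12 was called higher in Ptgs-/- tumors and the other 3 were not called, with estimates below 0. The TATA motif TATAAA (12.4% of all windows) was found in Mmp13, Mmp3 and Mmp10, and the ETS-type motif AGGAAG (29.5%, searched on both strands) in Mmp13, Mmp12, Mmp3, Mmp14, Timp1 and Timp3. The motif TTCNNNGAA (7.02%), the letters that STAT proteins bind, was found in none of the 8. A match is a run of letters and not a measured site.

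The second comparison asked what NK cell depletion changed within Ptgs-/- tumors. None of the 10 genes was called in NK-depleted against Ptgs-/- tumors by edgeR, where 1.44% of all genes tested were, and 1 of 10 had an unadjusted p under 0.05 (Timp3). DESeq2 and edgeR's likelihood ratio test called none either. The median log2 fold change was 0.20, beside 0.01 for all genes. In 2 of 10, Mmp3 and Mmp14, the groups did not overlap, against 17.6% of all genes, and both were higher after depletion.

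Timp3 had 3.85, 5.81 and 8.94 CPM in NK-depleted tumors, of which the highest lay within the range of the Ptgs-/- tumors and the lowest below every Ptgs+/+ tumor. The log2 fold change was −0.86 (SE 0.28, 95% interval −1.48 to −0.24, adjusted p = 0.252, edgeR). Mmp14 had 418, 447 and 467 CPM, with a log2 fold change of 0.19 (95% interval −0.01 to 0.39, adjusted p = 0.494, edgeR), and Mmp3 had 152, 185 and 154 CPM, with 0.33 (−0.04 to 0.69, adjusted p = 0.517, edgeR). Both separations were narrow, with the lowest NK-depleted and the highest Ptgs-/- tumor both at 152 CPM for Mmp3 and both at 418 CPM for Mmp14 when rounded. Timp1 had 311, 345 and 300.1 CPM, and its log2 fold change of 0.22 had an interval from −0.10 to 0.54 (adjusted p = 0.636, edgeR). Mmp12 had 46.0, 35.1 and 52.8 CPM, all within the range of the Ptgs-/- tumors (−0.17, interval −0.99 to 0.65, adjusted p = 0.895, edgeR). For the other 5 genes the estimates lay between −0.24 (Mmp2) and 0.50 (Mmp10), and every 95% interval included 0.

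The third comparison set NK-depleted Ptgs-/- tumors beside Ptgs+/+ tumors, and it shares libraries with both others. Timp1 was called, and it was lower, so 1 of 10 genes passed where 12.5% of all genes did, or 5.87% in the lower direction. The NK-depleted tumors (319 ± 23.2 CPM, SD, n = 3) all lay below all Ptgs+/+ tumors, with a log2 fold change of −1.02 (SE 0.14, 95% interval −1.33 to −0.72, adjusted p = 0.000734, edgeR). This call held without each of the 10 libraries (−1.09 to −0.95) and within EB046 alone (−1.06, adjusted p = 0.00341, edgeR). Libraries did not overlap for 2 of the 10 genes, Timp1 and, by a narrow margin, Mmp2, against 27.1% of all genes. Mmp2 had 104, 91.0 and 103 CPM, with a log2 fold change of −0.22 (95% interval −0.64 to 0.20, adjusted p = 0.516, edgeR). Mmp12 was above 3 of the 4 Ptgs+/+ tumors in each NK-depleted tumor. Its log2 fold change of 0.95 (95% interval 0.18 to 1.72) missed the threshold (adjusted p = 0.104, edgeR) and passed it with DESeq2 (0.96, adjusted p = 0.0417) and without Ptgs+/+ replicate 1 (1.27, adjusted p = 0.0445, edgeR) or Ptgs-/- replicate 1 (0.94, adjusted p = 0.0367, edgeR). Mmp13 had 9.74, 10.3 and 11.8 CPM (−0.63, 95% interval −1.28 to 0.03, adjusted p = 0.205, edgeR). Timp3 was at 0.45 (95% interval −0.16 to 1.05, adjusted p = 0.335, edgeR), and Mmp14 at −0.11 (95% interval −0.30 to 0.08, adjusted p = 0.456, edgeR). The median over the 10 genes was −0.16, and over all genes −0.01.

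Of the 17 other metalloproteinase and inhibitor genes, 8 passed the filter on low counts, and 5 of these were called in Ptgs-/- against Ptgs+/+ tumors (23.1% of all genes). Mmp9, the gelatinase stored in neutrophil granules, showed the largest fall in the family. It had 334, 348, 164 and 314 CPM in Ptgs+/+ tumors, 29.8, 33.1 and 37.7 CPM in Ptgs-/- tumors and 53.1, 59.5 and 40.6 CPM in NK-depleted tumors. The fall was 9.01-fold in Ptgs-/- tumors (log2 fold change −3.17, SE 0.26, adjusted p = 3.63e-05, edgeR) and 5.80-fold in NK-depleted ones (−2.54, SE 0.25, adjusted p = 0.000108, edgeR). Within EB046 alone both calls held (−3.19 and −2.50, adjusted p = 0.00147 and 0.00106, edgeR). The Ptgs+/+ tumor lowest for Mmp9, replicate 3, was also the one lowest for Ptgs2 (94.4 CPM, against 283 to 347 in the other 3). The same tumor had the lowest neutrophil marker sum of its group (322 CPM) and the highest skeletal muscle sum (181 CPM). Whether any of these goes with Mmp9 was not tested.

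Mmp16, the membrane-bound MT3-MMP, fell from 6.39, 6.80, 6.85 and 8.06 CPM in Ptgs+/+ tumors to 0.982, 0.621 and 1.28 CPM in Ptgs-/- tumors and stood at 1.18, 1.48 and 1.19 CPM in NK-depleted ones. The log2 fold change was −2.90 (SE 0.26, adjusted p = 5.41e-05, edgeR) and −2.47 (SE 0.25, adjusted p = 0.000113, edgeR) in the same order, and within EB046 alone −3.08 and −2.40 (adjusted p = 0.00138 and 0.000754, edgeR). Mmp8, the neutrophil collagenase and a gene of the chromosome 9 cluster, had 3.56 to 7.24 CPM in Ptgs+/+ tumors and 2.09, 2.28 and 2.28 CPM in Ptgs-/- tumors (−1.36, SE 0.27, adjusted p = 0.00454, edgeR), and was lower within EB046 alone too (−1.4956, adjusted p = 0.011, edgeR). In NK-depleted tumors it had 3.85, 4.98 and 5.96 CPM, above every Ptgs-/- tumor. That difference of 1.18 missed the threshold (SE 0.29, adjusted p = 0.0874, edgeR) and passed it with DESeq2 (1.17, adjusted p = 0.0318). The 12 neutrophil markers, Mmp8 among them, summed to 322 to 391 CPM, 95.8 to 138 CPM and 150.1 to 183 CPM in the 3 groups. Of the 9 markers tested, 5 were called lower in Ptgs-/- against Ptgs+/+ tumors (11% of all genes), and Ly6g was at 0 in all 3 Ptgs-/- libraries, as was Ngp in all Ptgs+/+ and all NK-depleted ones. In NK-depleted against Ptgs-/- tumors edgeR called 2 of the 9 higher and 0 lower, where 1.44% of all genes were called, and DESeq2 called 5. In NK-depleted against Ptgs+/+ tumors 4 were called lower and 1 higher, beside 5.87% and 6.63% of all genes. The part of neutrophil number in Mmp8 and Mmp9 was not tested.

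Both remaining calls were rises. Mmp23, a short membrane-anchored member, had 20.9, 16.9, 29.7 and 20.1 CPM in Ptgs+/+ tumors and 32.3, 48.5 and 36.7 CPM in Ptgs-/- tumors (log2 fold change 0.78, SE 0.19, adjusted p = 0.0130, edgeR). It was back at 22.1, 22.2 and 25.8 CPM in NK-depleted tumors, below every Ptgs-/- tumor. That difference was −0.72 (SE 0.21, adjusted p = 0.167, edgeR) and passed the threshold with DESeq2 (−0.73, adjusted p = 0.0433). The Mmp23 rise held within EB046 alone (0.83, adjusted p = 0.0485, edgeR) and was not past the threshold without Ptgs-/- replicate 2 (0.60, adjusted p = 0.0599, edgeR). Mmp27, with 5 to 30 counts a library, was called higher in Ptgs-/- (1.24, adjusted p = 0.0389, edgeR) and NK-depleted tumors (1.42, adjusted p = 0.0324, edgeR). The first of these was not past the threshold without 7 of the 10 libraries, the largest loss being without Ptgs-/- replicate 2 (0.67, adjusted p = 0.250, edgeR), and the second without 6 of 10. Within EB046 alone neither passed (1.495 and 1.41, adjusted p = 0.0562 and 0.0619, edgeR). The first was also lost with only those groups fitted (1.26, adjusted p = 0.0738, edgeR) and with the replicate block (1.24, adjusted p = 0.0584, edgeR), and the second with the experiment code as a term (1.31, adjusted p = 0.0597, edgeR).

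Timp2, the inhibitor that also takes part in MMP-2 activation, was the most abundant gene of the family, at 1582 to 2131 CPM (Ptgs+/+), 2079 to 2716 CPM (Ptgs-/-) and 1965 to 2130.2 CPM (NK-depleted). It was not called in any comparison, and its estimate for Ptgs-/- against Ptgs+/+ tumors was 0.18 on the log2 scale (95% interval −0.11 to 0.48, adjusted p = 0.366, edgeR). Mmp15 was at −0.70 in the same comparison (95% interval −1.42 to 0.02, adjusted p = 0.150, edgeR) and Timp4 at −0.71 (95% interval −2.42 to 1.0004, adjusted p = 0.555, edgeR). Timp4 lies within the spans of Syn2 and Gm17482 on the opposite strand. Syn2 had 1 to 77 counts a library beside 3 to 59 for Timp4, whose counts are uncertain if strand was not used. Of the 9 genes not tested, Mmp1b and Mmp20 had 0 counts in all 10 libraries and the other 7 had at most 15 counts in any. In NK-depleted against Ptgs-/- tumors edgeR called none of the 8, with 3 at an unadjusted p under 0.05 (Mmp8, Mmp9 and Mmp23), while DESeq2 called 2 (Mmp8 and Mmp23) and the likelihood ratio test 1 (Mmp8).

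**Figure D4:**
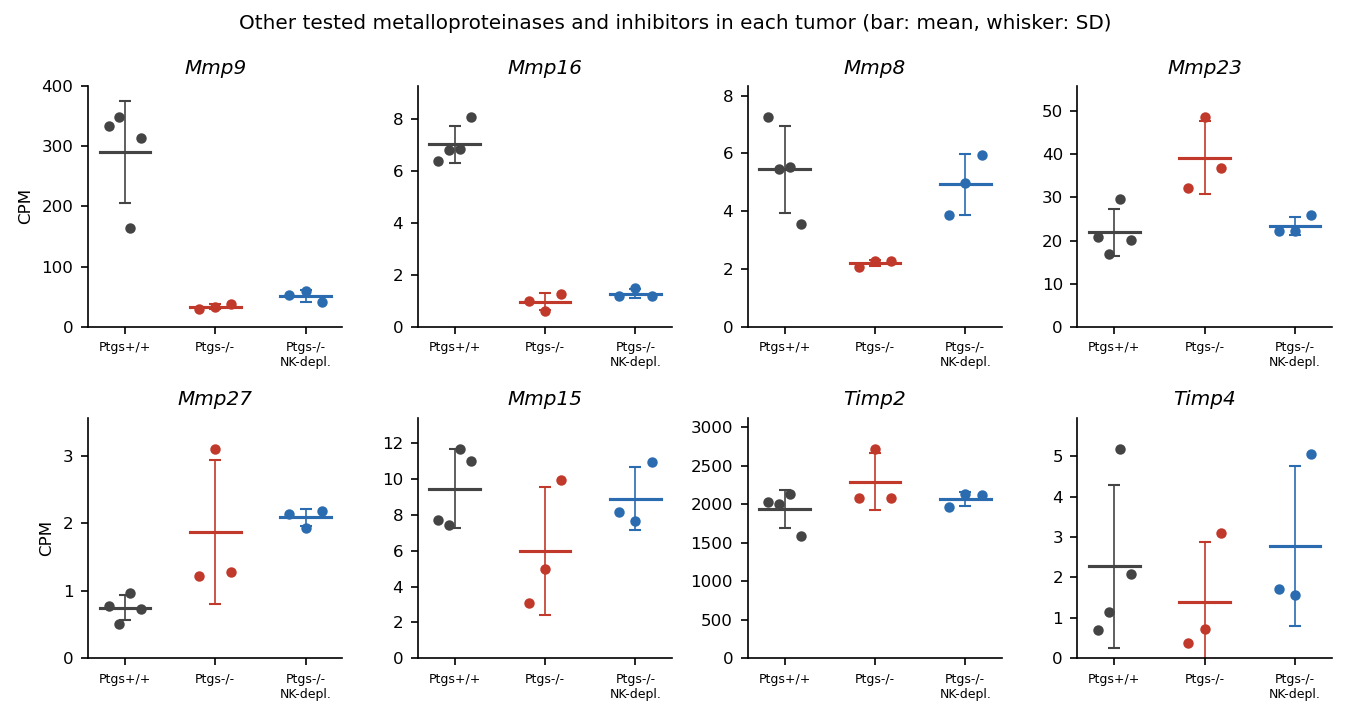
Level in CPM (y axes from 0) of the 8 other tested family genes in each tumor, with the mean (bar) and SD (whisker) of Ptgs+/+ (grey, n = 4), Ptgs-/- (red, n = 3) and Ptgs-/- NK-depleted tumors (blue, n = 3). Mmp9 and Mmp16 are lower in all 6 Ptgs-/- and NK-depleted tumors than in any Ptgs+/+ tumor, whereas Mmp8 and Mmp23 of NK-depleted tumors overlap the Ptgs+/+ tumors.

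Adding the 23 metalloproteinase genes gave a sum of 1158 ± 56.5 CPM (SD, n = 4) for Ptgs+/+ tumors. The sum was 829 ± 38.9 CPM for Ptgs-/- and 892 ± 30.2 CPM for NK-depleted tumors (SD, n = 3 each), neither of which overlapped the Ptgs+/+ tumors. In the same order of groups, Mmp9 made up 24.8 ± 6.48%, 4.05 ± 0.480% and 5.74 ± 1.146% of the sum. Without Mmp9 the sums were 868 ± 35.5, 796 ± 38.3 and 841 ± 35.1 CPM. The Ptgs-/- tumors (767 to 839.04 CPM) then all but met the Ptgs+/+ tumors (839.81 to 916 CPM), and the NK-depleted tumors (805 to 875 CPM) overlapped both. Mmp14 made up 40.5%, 47.9% and 49.8% of the whole sum. The 4 inhibitors added up to 2578 ± 270 CPM, 2583 ± 319 CPM and 2399 ± 104 CPM, all overlapping. The share of Timp1 in that sum was 24.7 ± 2.60%, 11.03 ± 3.12% and 13.3 ± 0.836%, and that of Timp2 was 75.0%, 88.5% and 86.3%. These sums are descriptions of tag counts, which reflect neither protein nor activity.

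**Figure D5:**
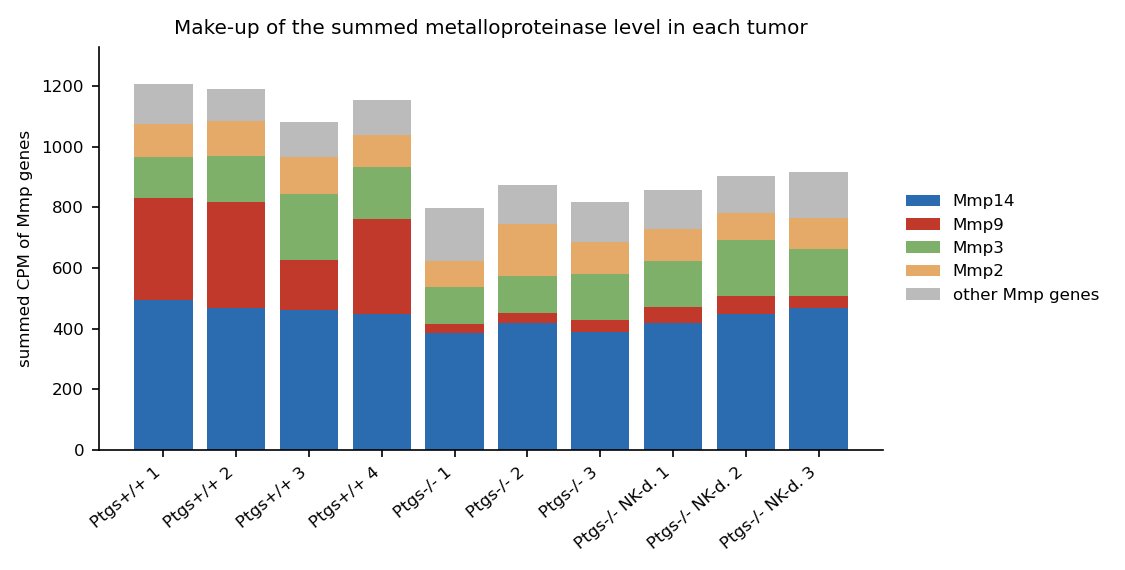
Summed CPM of the 23 metalloproteinase genes (y axis from 0) in each of the 10 tumors, stacked by gene with Mmp14, Mmp9, Mmp3 and Mmp2 shown and the remaining genes together in grey. The red Mmp9 block covers 15.2% to 29.2% of the sum in Ptgs+/+ tumors and 3.74% to 6.60% in the other 6.

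In Ptgs+/+ tumors the order of the mean levels of the 10 genes was Timp1, Mmp14, Mmp3, Mmp2, Mmp12, Mmp11, Mmp13, Mmp19, Timp3 and Mmp10, on tag counts that do not scale with length. The neighbors Mmp12 (14.3 to 36.1 CPM), Mmp11 (14.2 to 23.0) and Mmp13 (11.1 to 20.1) were not separated by the spread of the tumors, nor was Mmp13 from Mmp19 (9.00 to 12.4). In Ptgs-/- tumors, Timp3 (7.85 to 14.0 CPM) overlapped Mmp19 (6.99 to 14.1) and Mmp13 (5.59 to 15.1). Across the 10 libraries, the gene most like Mmp2 was Mmp19 (Spearman's rho 0.927 on log2(CPM + 1), 0.733 once group means were removed). The gene most like Timp1 was Mmp13 (0.867, and 0.685 once group means were removed), and Timp1 was also the most like Mmp10 (0.733) and Mmp14 (0.685, but −0.15 once group means were removed). Mmp11 and Mmp12 were the most like each other (0.697). These values are descriptions over libraries that share groups, depth and tissue make-up.

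Genes that act with the metalloproteinases were followed as lists. Among cytokines and growth factors known to induce them, 8 of 16 tested were called lower and 2 higher in Ptgs-/- against Ptgs+/+ tumors (11% and 12.1% of all genes). The interleukin gene Il1b fell from a mean of 90.3 to 21.1 CPM (log2 fold change −2.15, SE 0.12, adjusted p = 6.13e-06, edgeR), the EGF receptor ligand Ereg from 143 to 29.3 CPM (−2.35, adjusted p = 6.39e-05, edgeR) and the chemokine Cxcl1 from 22.9 to 3.84 CPM (−2.65, adjusted p = 0.00135, edgeR). In NK-depleted against Ptgs+/+ tumors 4 of 16 were called, all lower (5.87% of all genes), with Il1b at −2.05, Ereg at −1.87 and Il6 at −2.13. The list's median was −0.51 in the first of these comparisons and −0.12 in the second. It was written with earlier results of these data known. The paper had already reported lower Il6, Cxcl1 and Il1b transcripts in COX-deficient tumors, so the list is not independent of that result. The part of these factors in the metalloproteinase levels was not tested.

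Among 18 AP-1 and ETS factors and readouts of the ERK pathway that feeds them, 7 were called lower and 2 higher in Ptgs-/- against Ptgs+/+ tumors (11% and 12.1% of all genes), with a median of −0.33. Fosl2 fell from 325 to 195 CPM (−0.80, SE 0.13, adjusted p = 0.00158, edgeR), whereas Atf3 rose from 6.46 to 26.0 CPM (1.94, SE 0.29, adjusted p = 0.00093, edgeR) and Jund from 27.5 to 49.0 CPM (0.77, adjusted p = 0.00203, edgeR). In NK-depleted against Ptgs+/+ tumors 4 were lower, among them Fosl2 (−0.72), Etv1 (−0.63) and Junb (−0.45), and 1 was higher, beside 5.87% and 6.63% of all genes.

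Cathepsins and cystatins, a protease system that works largely in lysosomes, were called in 1 direction. Of 13 tested, 7 were higher and 0 lower in Ptgs-/- against Ptgs+/+ tumors, where 12.1% of all genes were higher and 11% lower. At an unadjusted p under 0.05 the counts were 8 and 0, and DESeq2 called 7. In NK-depleted against Ptgs+/+ tumors 5 of 13 were higher, beside 6.63% of all genes. Ctss, a cathepsin of antigen-presenting cells, rose from 314 to 774 CPM (1.24, SE 0.09, adjusted p = 1.83e-05, edgeR), Ctsb from 412 to 649 CPM (0.60, adjusted p = 0.00147, edgeR) and the inhibitor Cst6 from 2.91 to 9.67 CPM (1.66, adjusted p = 0.00117, edgeR). The list's median was 0.58. The macrophage markers described with Mmp12 were higher in the same tumors, and their part was not tested.

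Matrix proteins that these enzymes cut went both ways, with 7 of 19 higher and 6 lower in Ptgs-/- against Ptgs+/+ tumors (12.1% and 11% of all genes) and a median of 0.25. Versican (Vcan) fell from 195 to 106 CPM (−0.93, SE 0.11, adjusted p = 0.00025, edgeR) and tenascin C (Tnc) from 500.3 to 193 CPM (−1.44, SE 0.22, adjusted p = 0.001, edgeR), while fibronectin (Fn1) rose from 718 to 1383 CPM (0.89, SE 0.15, adjusted p = 0.00169, edgeR). All 3 were also called in NK-depleted against Ptgs+/+ tumors in the same directions, with Vcan at −1.14, Tnc at −0.84 and Fn1 at 0.64. Of 17 activators and inhibitors of proteolysis at the cell surface, 2 were higher and 3 lower in Ptgs-/- tumors, a share near the 23.1% of all genes called, with a median of −0.19. The broad protease inhibitor A2m rose from 0.503 to 2.56 CPM (2.23, adjusted p = 0.00644, edgeR), from a Ptgs+/+ level close to the floor of 0.234 to 0.368 CPM. Lcn2, which binds MMP-9 and is itself a neutrophil product, fell from 9.98 to 1.98 CPM (−2.33, adjusted p = 0.00879, edgeR), as did the urokinase receptor gene Plaur from 49.2 to 26.2 CPM (−0.97, adjusted p = 0.011, edgeR). Of 19 ADAM and ADAMTS proteases, 2 were higher (Adamts15, 0.83, and Adam19, 0.44) and 1 lower (Adamts9, −0.83), a share below that of all genes, with a median of 0.10. In NK-depleted against Ptgs-/- tumors edgeR called 0 of the 102 genes tested of these 6 lists, where 1.44% of all genes were called, with 15 at an unadjusted p under 0.05, while DESeq2 called 2 (Adamts15 and Ctss) and the likelihood ratio test 1 (Adamts15).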

How the data were processed

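RNA of 10 day 4 tumors was measured as QuantSeq 3′ libraries. The authors trimmed reads (the first 12 bases with BBDUK, then fqtrim and cutadapt), used STAR for alignment to GRCm38 and featureCounts for counting per gene of the version 86 annotation, and they deposited raw counts, not normalized and not pooled. Use of strand, of reads mapping to several genes and of molecular identifiers is not given in the sources used here. Groups came from the submitters' labels. Of 45706 genes 45143 were named, by the GENCODE table of the same build, from which coordinates come.

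The counts were passed to edgeR 4.0.16 under R 4.3.3. filterByExpr kept 14550 genes, TMM gave factors of 0.963 to 1.04, and all 10 libraries entered 1 quasi-likelihood model with the group as its term. The standard error is the absolute log2 fold change over the square root of F. A gene was called where its FDR was 0.05 or lower. On simulated data for Ptgs-/- against Ptgs+/+ tumors, 14348 genes run, 79 of 100 genes changed by a log2 fold of 1 and 99 of 100 changed by 2 were called, with 8 unchanged genes. The changed genes were drawn only from those above a set mean level, so these shares do not cover genes as low as Mmp10, Mmp16 or Mmp27. The 12 pairs of replicates differed by a chi-square per degree of freedom of 8.06 to 33.2, so no library was counted as a repeat. Alternatives were DESeq2 1.42.0, library size alone, other filters, the likelihood ratio test of edgeR, a term for the experiment code, EB046 alone, a fit of only both groups in question, a block for the label number, leaving out each library, and an added absolute log2 fold threshold of 1.5. All 10 genes are named, with every tested gene of the family and at most the 3 genes of smallest adjusted p in each other list and comparison. Genes of the cell type lists are given mainly as sums and counts. The genes and lists were chosen with earlier results of these data known.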

Additional observations from a re-analysis of the deposited data

How the results depend on the processing

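Of the log2 fold changes of the 18 tested family genes, the settings other than leaving out a library left 442 on their side of the threshold, moved 14 past it and 12 off it, and turned 6, and leaving out each library left 489, moved 7 past and 25 off, and turned 19. Genes called in Ptgs-/- against Ptgs+/+ tumors numbered 3360, and 2222 within EB046 alone, 604 with the added fold threshold and 2062 (without Ptgs-/- replicate 2) to 3881 without each library. Of the 10 genes 4 were called, 2 within EB046 alone or with only those groups fitted, 0 with the fold threshold, and 2 (without Ptgs+/+ replicate 2) to 4 without each library. In NK-depleted against Ptgs-/- tumors the 209 genes became 383 with DESeq2, 408 without a filter, 42 with at least 10 counts in every library, 403 with the likelihood ratio test, 93 within EB046 alone and 106 to 411 without each library. The count moved by more than 1.5 times without Ptgs-/- replicate 1 (411), 2 (106) or 3 (117) and NK-depleted replicate 2 (131) or 3 (121). In NK-depleted against Ptgs+/+ tumors the 1818 genes became 395 with the fold threshold and 909 to 2116 without each library, with NK-depleted replicates 1 (1057), 2 (1121) and 3 (909) and Ptgs+/+ replicate 2 (1187) moving it most. The call of 1 of the 10 genes became 2 (Timp1 and Mmp12) with DESeq2, without a filter, with only those groups fitted and with the replicate block, 0 with the fold threshold and 1 to 2 without each library.

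Estimates that changed sign were of genes not called in that comparison. In Ptgs-/- against Ptgs+/+ tumors Mmp11 was 0.036 within EB046 alone and Mmp19 0.0029 with library size alone. Without each library Mmp2 ranged from −0.30 to 0.21, Mmp11 from −0.29 to 0.054, Mmp19 from −0.32 to 0.15 and Timp4 from −2.02 to 0.13. In NK-depleted against Ptgs-/- tumors Mmp27 was −0.084 within EB046 alone, and without each library Mmp2 ranged from −0.43 to 0.083, Mmp12 from −0.45 to 0.37, Mmp13 from −0.076 to 0.71, Mmp19 from −0.43 to 0.038, Mmp27 from −0.084 to 0.75 and Timp2 from −0.22 to 0.011. In NK-depleted against Ptgs+/+ tumors Mmp15 was 0.059 and Timp2 −0.011 with the code as a term, and Timp2 was −0.020 within EB046 alone. Without each library Mmp3 ranged from −0.17 to 0.083, Mmp15 from −0.27 to 0.0061, Mmp23 from −0.037 to 0.25, Timp2 from −0.032 to 0.11 and Timp4 from −0.49 to 1.08. The cause was not tested.

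Whether the label numbers pair the libraries was not settled. After group means were removed, same-numbered pairs correlated from −0.244 to 0.355 and differently numbered ones from −0.426 to 0.166. Of 10 libraries, 6 correlated best with their own number, and the share to expect without pairing was not worked out. With the number as a replicate block, 3237, 195 and 1769 genes were called in the 3 comparisons, 3 of the 10 genes in the first (Mmp14 at adjusted p = 0.0508, edgeR) and 0 in the second. Genes with fewer than 10 counts in a library, Mmp10 among them, gave no value under that filter. Low counts limit the precision for Timp4 (3 to 59 a library), Mmp27 (5 to 30), Mmp16 (6 to 82) and Mmp10 (7 to 31).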
